A study of Mus musculus with 5 samples.

Results

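The genes of fatty acid synthesis and desaturation were examined in RNA of hepatocytes, the main cells of the liver, sorted by a fluorescent probe of fatty acid oxidation. The 10 genes, chosen by symbol, were Srebf1, Acly, Acaca, Acacb, Fasn, Scd1, Elovl6, Fads1, Fads2 and Me1, out of 13966 symbols in the table, and all 10 had a row. The 5 libraries came from ICR mice, an outbred stock. There were 3 libraries of mice that received bezafibrate, a fibrate drug that activates PPARs, nuclear receptors of lipid metabolism, from the negative, positive and high gates of the probe, and 2 of control mice, from the positive and negative gates. Since a group is a single library, replicates are lacking for every difference, no test against the spread between replicates was possible, and each value describes these libraries and not the conditions. Genotype, sex, age, dose, length of treatment, feeding state and the number of mice behind a library are not stated in the labels. Treatment and mouse cannot be told apart.

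Fatty acid synthesis turns surplus carbohydrate into fat. ATP citrate lyase makes acetyl-CoA in the cytosol, acetyl-CoA carboxylase makes malonyl-CoA from it, fatty acid synthase builds palmitate with NADPH, and elongases and desaturases then lengthen the chain and add double bonds. The transcription factor SREBP-1c, encoded by Srebf1, is known to drive many of these genes in fed liver under insulin. Malonyl-CoA also inhibits the entry of fatty acids into mitochondria, which ties the pathway to fatty acid oxidation. In mouse liver, Scd1, Fads1, Fads2 and Me1 are also known to respond to PPARalpha agonists.

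The libraries differed in RNA make-up by treatment, and these values stand beside every comparison of bezafibrate with control below. Recovered depth lay between 5056884 and 7146578 reads. Rn45s, the ribosomal RNA precursor gene, held 10.5% to 18.5% of reads in the 3 bezafibrate libraries and 34.8% to 36.3% in the 2 control libraries. Albumin RNA held 6.26% to 8.47% of the reads outside Rn45s in bezafibrate libraries and 3.24% to 3.41% in control libraries. Ehhadh, a peroxisomal oxidation enzyme and a known PPARalpha target, lay between 1268 and 1813 normalised read counts in bezafibrate libraries and between 72.9 and 87.5 in control libraries. Hepatocyte markers were present, with all 8 listed genes above 0 in each library. Of the list of adipocyte markers, a second cell type rich in these enzymes, 3 of 6 had a row; Adipoq, Plin1 and Lep had none. Their summed value, 949.5 to 1450 in bezafibrate and 506.3 to 542.0 in control libraries, was nearly all Car3, which mouse hepatocytes also express, and Cfd reached at most 0.647. Summed Kupffer cell markers (5 of 8 with a row) lay between 3.87 and 7.59 in bezafibrate and between 3.90 and 7.76 in control libraries. Summed markers of sinusoidal endothelium (6 of 7) were 17.5 to 28.6 and 16.4 to 25.3, of cholangiocytes (4 of 6) 6.46 to 13.1 and 2.80 to 7.39, and of stellate cells (6 of 7) 32.0 to 42.2 and 102.0 to 111.5, in the same order of treatments. Reln held most of the last sum, and Stab2 most of the endothelial sum. Summed markers of T and NK cells and of neutrophils (1 gene each with a row) reached at most 0.616 and 1.58 in any library, and no B cell marker had a row. Those of erythroid cells (2 of 4) lay between 33.1 and 45.5 in bezafibrate and between 24.1 and 25.3 in control libraries. Nearly all of the erythroid sum was Alas2, and Hba-a1 reached at most 0.411. The part of the RNA make-up and of these markers in the results was not tested.

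The 10 genes did not all differ in the same direction between bezafibrate and control libraries. Scd1, the desaturases Fads1 and Fads2, and Srebf1 were higher in bezafibrate than in control libraries in both the negative and the positive gate, and Acaca was lower in both. Fasn differed little. Values are normalised read counts as deposited, which are reads divided by 1 factor per library, and ratios carry 95% counting intervals (exact, Clopper-Pearson) computed on whole reads. The intervals cover counting error only, since copies of 1 molecule can be read more than once and mice differ. Each gene had between 255 and 47820 reads in a library. In the negative gate the interval lay above 1 for 6 genes, below 1 for 2 and held 1 for 2; in the positive gate it lay above 1 for 5 and below 1 for 5. Such intervals are narrow at these depths and lay above 1 for 32.3% and below 1 for 29.0% of all genes analysed in the negative gate, and for 25.9% and 24.4% in the positive gate. All genes analysed include genes of far fewer reads and wider intervals, here and in the comparisons of gates below. The median log2 difference of the 10 genes was 0.48 in the negative and 0.08 in the positive gate, beside 0.025 and 0.004 over all 8981 genes with a mean of at least 5, the genes analysed. It was 0.22 to 0.71 over the scalings in the negative gate, where that of all genes was -0.22 to 0.248. In the positive gate the median of the 10 changed direction, to -0.036 with Rn45s left out of the column totals and to -0.12 without Scd1. That of all genes there was -0.106 without Rn45s. With 5 genes above 0 and 5 below there, leaving out any 1 of the 5 above gives -0.12. Of the 10 genes, 2 (Scd1 and Fads1) were at least 2-fold higher in the negative gate, where 10.3% of all genes analysed were, and 1 (Scd1) in the positive gate, where 4.97% were. Scaled by column totals, which moved the median of all genes to 0.25 and 0.20, these counts were 4 and 2. Of all genes, 1446 and 820 were at least 2-fold higher under that scaling, against 923 and 446 as deposited. None of the 10 was at least 2-fold lower, against 5.86% and 2.91% of all genes.

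**Figure D1:**
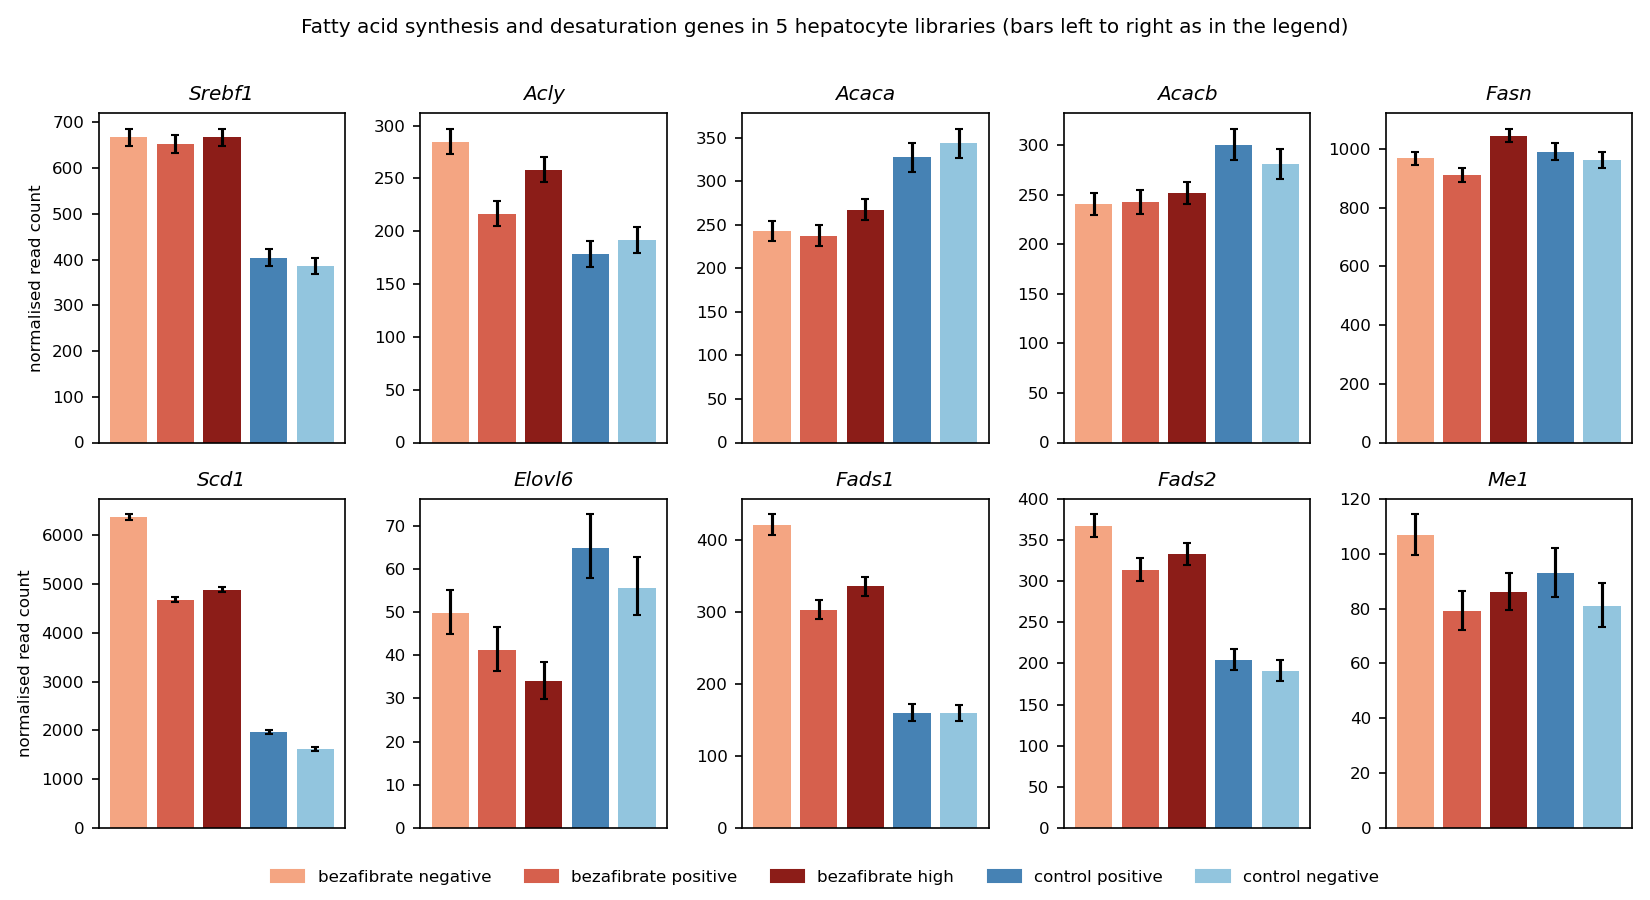
Normalised read counts (y axes, from 0, a scale per gene) of the 10 genes in the 5 libraries, 1 bar per library, with exact Poisson 95% intervals that cover counting error only. Srebf1, Scd1, Fads1 and Fads2 stand higher in the 3 bezafibrate libraries than in the 2 control libraries, Acaca, Acacb and Elovl6 stand lower (the last 2 not in the negative gate when scaled by column totals), and Fasn lies between 911.8 and 1046 in all.

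Srebf1, the transcription factor at the head of the pathway (chromosome 11, 60199089 to 60222581, minus strand, GRCm38), had 667.0, 653.3 and 667.5 normalised read counts in the bezafibrate negative, positive and high libraries, against 404.2 and 385.4 in control positive and negative. The 3 bezafibrate values lay close together and above both control values. The ratio of bezafibrate to control was 1.73 (1.64 to 1.83) in the negative and 1.62 (1.53 to 1.71) in the positive gate. Srebf1 produces SREBP-1a and SREBP-1c from different starts, and the table holds 1 value per gene, so the 2 forms were not measured apart. Sensing of sterols and carbohydrate is known to act on SREBP-1c after transcription too, and RNA does not show the cleaved protein.

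The sequences before a RefSeq start of 8 of the 10 genes were matched by symbol in promoters of GRCm38.p6, with 11 windows in all. Scd1 and Fads1 had no entry. The only windows of Acaca (from 84195188) and Acacb (from 114165268) lie inside the GENCODE genes, which start at 84129672 and 114146535. No window before those 2 starts was searched. Nearly all of the only Fads2 window (10101504 to 10101753) also lies inside its GENCODE gene, which starts at 10101746 on the minus strand. The sequence before that start was thus hardly searched. The sequences are shown because genes taken to share a regulator differed in direction. The 4 windows below hold the 250 bases before a start, 5′ to 3′ on the gene's strand, for genes that were higher (Srebf1, Fads2), near level (Fasn) and lower (Acacb, except in the negative gate by column totals) in bezafibrate libraries. Capitals mark letters that match a searched motif on either strand. The searched motifs were the CCAAT box bound by NF-Y (CCAAT), the E-box (CACGTG), a sterol regulatory element (TCACNCCAC), the form of that element in Srebf1 itself (TCACCCGAG), and the nuclear receptor repeats DR1 and DR4 (AGGTCA repeated in the same direction after 1 or 4 bases of any kind).
Srebf1, chr11:60210472-60210721, minus strand: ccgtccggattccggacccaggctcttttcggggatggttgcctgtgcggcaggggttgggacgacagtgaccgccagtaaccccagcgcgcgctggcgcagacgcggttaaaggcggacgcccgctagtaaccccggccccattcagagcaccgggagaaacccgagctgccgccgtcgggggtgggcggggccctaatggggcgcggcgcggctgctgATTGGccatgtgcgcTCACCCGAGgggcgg
Fads2, chr19:10101504-10101753, minus strand: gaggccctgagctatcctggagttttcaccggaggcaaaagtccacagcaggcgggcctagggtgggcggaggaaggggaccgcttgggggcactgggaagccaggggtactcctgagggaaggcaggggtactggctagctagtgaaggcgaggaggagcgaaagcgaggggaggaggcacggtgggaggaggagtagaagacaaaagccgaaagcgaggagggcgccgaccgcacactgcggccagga
Fasn, chr11:120824548-120824797, minus strand: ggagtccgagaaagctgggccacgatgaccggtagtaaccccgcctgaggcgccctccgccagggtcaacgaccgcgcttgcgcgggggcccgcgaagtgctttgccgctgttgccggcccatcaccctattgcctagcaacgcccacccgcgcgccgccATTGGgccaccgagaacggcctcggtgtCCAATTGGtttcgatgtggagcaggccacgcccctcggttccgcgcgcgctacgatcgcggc
Acacb, chr5:114165268-114165517, plus strand: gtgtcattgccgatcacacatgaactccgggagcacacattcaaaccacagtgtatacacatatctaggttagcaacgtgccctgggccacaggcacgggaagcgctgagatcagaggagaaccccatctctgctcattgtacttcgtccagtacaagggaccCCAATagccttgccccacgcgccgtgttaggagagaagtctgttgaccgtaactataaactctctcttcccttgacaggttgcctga
In the Srebf1 window a CCAAT box lay 30 to 26 bases before the start and the sterol element 15 to 7 bases before it. The letters of that element were chosen with this window in view, so their presence is no finding; 0.131% of 32851 promoter windows hold them. Fasn held 3 CCAAT matches, at 90 to 86, 62 to 58 and 59 to 55 bases before the start, and the last 2 overlap. Acacb held 1, at 87 to 83 bases. The Fads2 window, nearly all inside its GENCODE gene, held no match to any motif searched. Of windows not printed, a CCAAT match lay 208 to 204 bases before a start of Me1 and 166 to 162 bases before 1 of the 2 other starts of Srebf1. The CCAAT letters occur in 33.9% of the promoter windows, E-box letters in 6.02%, TCACNCCAC in 1.05%, DR1 in 0.0335% and DR4 in 0.0152%, and none of these last 4 was found in the 11 windows. These matches are letters in a window and not measured binding.

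Of the enzymes that make palmitate, Acly was higher in bezafibrate libraries, Acaca lower and Fasn nearly level. Acly, ATP citrate lyase (chromosome 11, 100476353 to 100528000), had 284.7, 216.4 and 258.1 normalised read counts in bezafibrate negative, positive and high, against 178.5 and 191.8 in control positive and negative. Its bezafibrate to control ratio was 1.48 (1.37 to 1.61) in the negative and 1.21 (1.11 to 1.32) in the positive gate, so all 3 bezafibrate values stood above both control values, with bezafibrate positive the nearest. Acaca, the cytosolic acetyl-CoA carboxylase that supplies synthesis (chromosome 11, 84129672 to 84401651), ran the other way. It had 242.5, 237.5 and 267.1 in bezafibrate negative, positive and high, against 327.2 and 343.3 in control positive and negative, with ratios of 0.706 (0.661 to 0.755) and 0.726 (0.675 to 0.780) in the negative and positive gates. Acaca kept this direction under the 4 other scalings tried.

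Acacb, the carboxylase at the outer mitochondrial membrane, whose malonyl-CoA is known to restrain the carnitine shuttle (chromosome 5, 114146535 to 114250761), had 240.3, 242.7 and 251.4 in bezafibrate negative, positive and high, against 300.3 and 280.5 in control positive and negative. The ratio was 0.857 (0.798 to 0.920) in the negative gate, and came to 1.01 when libraries were scaled by column totals. In the positive gate it was 0.808 (0.751 to 0.870), and lower under each scaling tried. Fasn, fatty acid synthase (chromosome 11, 120805846 to 120824547), had 968.6, 911.8 and 1046 against 991.2 and 963.1 in the same order. Its ratio was 1.01 (0.969 to 1.04) in the negative and 0.920 (0.885 to 0.956) in the positive gate, and both changed direction with the scaling, between 0.841 and 1.18 and between 0.850 and 1.06. The bezafibrate and control values of Fasn overlapped.

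Me1, the malic enzyme that yields NADPH for synthesis (chromosome 9, 86581371 to 86695953), had 106.8, 79.1 and 85.9 in bezafibrate negative, positive and high, against 92.9 and 81.1 in control positive and negative. Only the bezafibrate negative library stood above both control libraries. The ratio was 1.32 (1.17 to 1.49) in the negative gate and 0.852 (0.747 to 0.971) in the positive gate. These gate values lay on opposite sides of 1 under each scaling tried, from 1.10 to 1.55 and from 0.787 to 0.983. Intervals were computed as deposited. At the ends nearest 1 (1.10 and 0.983), intervals of the same relative width would hold 1. The difference between the gates was not tested.

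Scd1, the stearoyl-CoA desaturase that makes oleate and palmitoleate (chromosome 19, 44394455 to 44407879, minus strand), had the widest difference of the 10 genes. It had 6374, 4677 and 4880 normalised read counts in bezafibrate negative, positive and high, against 1969 and 1624 in control positive and negative. Every bezafibrate value was over 2-fold above both control values. The ratio was 3.93 (3.83 to 4.02) in the negative gate, larger than the difference of 99.0% of all genes analysed, and 2.37 (2.32 to 2.43) in the positive gate, larger than that of 97.5%. Scd1 alone held 65.6%, 60.9% and 59.8% of the reads of the 10 genes in bezafibrate negative, positive and high, against 42.0% and 38.0% in control positive and negative. The 10 genes together held 1.14%, 0.997% and 1.04% of the reads outside Rn45s in bezafibrate negative, positive and high, against 0.660% and 0.600% in control positive and negative. In such bulk RNA, fewer cells of a type and less RNA per cell cannot be told apart. Scd1 has close paralogues, among which the counting could split reads. Without Scd1 the sum of the other 9 was 3348, 2999 and 3279 normalised read counts, against 2724 and 2651, in the same order.

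Fads1 and Fads2, the delta-5 and delta-6 desaturases of polyunsaturated fatty acid synthesis, lie near each other on chromosome 19 (10182888 to 10196877 on the plus strand and 10062765 to 10101746 on the minus strand), and both were higher in bezafibrate libraries. Fads1 had 421.4, 303.6 and 335.9 in bezafibrate negative, positive and high, against 160.4 and 159.7 in control positive and negative. Its ratio was 2.64 (2.44 to 2.86) in the negative and 1.89 (1.74 to 2.06) in the positive gate. Fads2 had 367.4, 313.8 and 333.0, against 204.6 and 190.9 in the same order, with ratios of 1.92 (1.79 to 2.07) and 1.53 (1.42 to 1.66). For both genes the bezafibrate and control values did not overlap, and the direction held under each scaling tried. Elovl6, which lengthens palmitate to stearate (chromosome 3, 129532355 to 129638495), went the other way, at 49.7, 41.1 and 34.0 in bezafibrate negative, positive and high, against 64.9 and 55.6 in control positive and negative. Its ratio was 0.894 (0.762 to 1.05) in the negative gate, an interval that holds 1, and 0.634 (0.535 to 0.751) in the positive gate. In the negative gate it came to 1.05 when scaled by column totals. Elovl6 had the fewest reads of the 10 genes, 255 to 373 per library, and so the widest intervals.

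**Figure D2:**
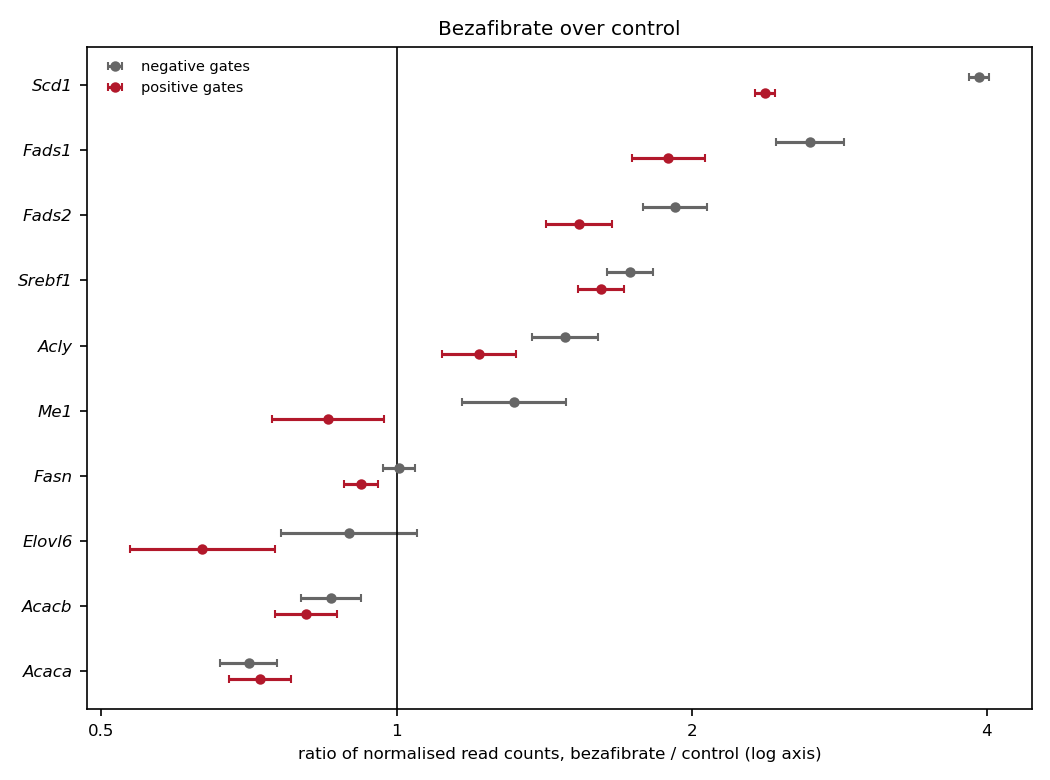
Ratio of normalised read counts, bezafibrate over control (x axis, log scale), for the 10 genes in the negative gates (grey) and the positive gates (red), with exact 95% counting intervals. Ratios span 0.706 to 3.93 in the negative gates and 0.634 to 2.37 in the positive gates, and Me1 lies on opposite sides of 1. Fasn in both gates, and Acacb and Elovl6 in the negative gates, cross 1 under another scaling.

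Ratios of 2 genes within a library do not depend on the scaling between libraries. Scd1 had 6.58, 5.13 and 4.66 reads for each Fasn read in bezafibrate negative, positive and high, against 1.99 in control positive and 1.69 in control negative, and counting intervals of bezafibrate and control libraries were far apart (4.55 to 6.75 and 1.63 to 2.06 at their outer ends). Srebf1 had 0.689, 0.717 and 0.638 reads per Fasn read in bezafibrate negative, positive and high, against 0.408 and 0.400 in control positive and negative. Acly had 0.294, 0.237 and 0.247, against 0.180 and 0.199. Relative to Fasn, all of these were thus higher in each bezafibrate library, while Elovl6 was lower, at 0.0513, 0.0451 and 0.0325 reads per Fasn read against 0.0655 and 0.0578, with intervals of bezafibrate negative (0.0461 to 0.0570) and positive (0.0397 to 0.0511) that overlapped that of control negative (0.0509 to 0.0653). Me1 had 0.110, 0.0868 and 0.0821 per Fasn read, against 0.0937 and 0.0842, and overlapped. Such ratios show unequal change and not which gene of a pair changed.

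The 2 carboxylases and the 2 polyunsaturated desaturases also differed in their ratio to each other. Acacb had 0.991, 1.02 and 0.941 reads per Acaca read in bezafibrate negative, positive and high, against 0.918 and 0.817 in control positive and negative, and the intervals of all 3 bezafibrate libraries overlapped that of control positive (0.853 to 0.988). Fads1 had 1.15, 0.967 and 1.01 reads per Fads2 read, against 0.784 and 0.837 in the same order, and the intervals of bezafibrate positive (0.908 to 1.03) and control negative (0.760 to 0.921) met.

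**Figure D3:**
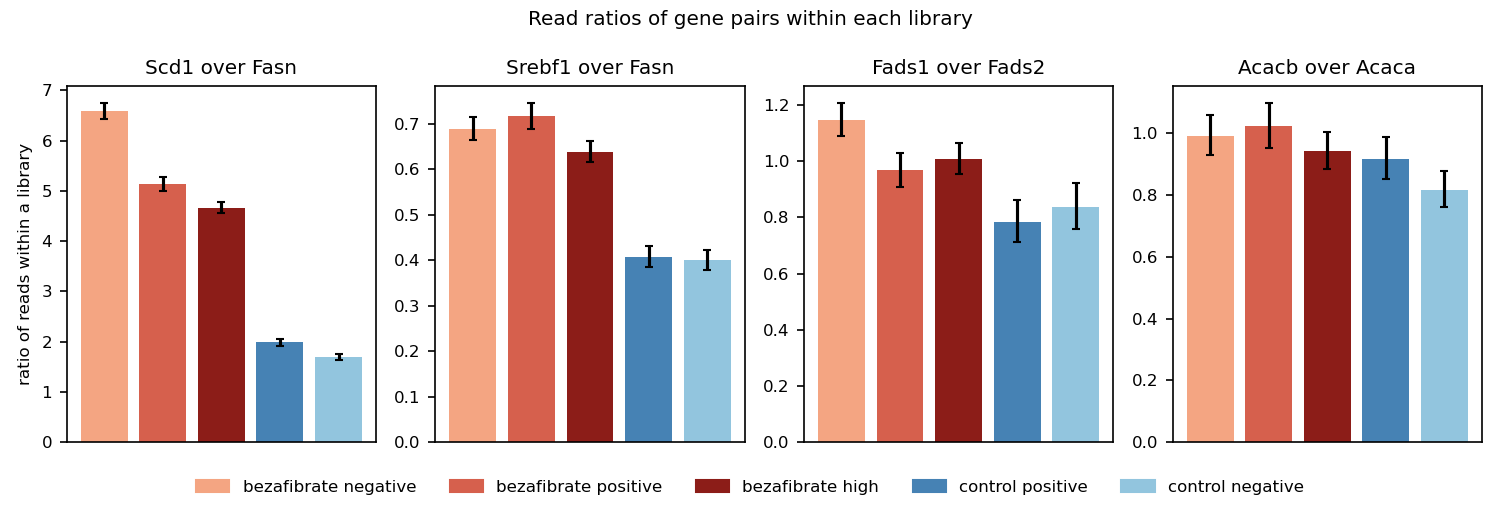
Ratio of the reads of 2 genes within each library (y axes, from 0), 1 bar per library, with exact 95% counting intervals. Scd1 over Fasn lies between 4.66 and 6.58 in bezafibrate libraries and between 1.69 and 1.99 in control libraries, and Srebf1 over Fasn between 0.638 and 0.717 and between 0.400 and 0.408.

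Between genes, levels were compared as normalised read counts per kilobase. With the median length of a gene's protein-coding transcripts in GENCODE M21, Scd1 was the highest of the 10 in each library, at 629.2 to 2470 per kilobase. Elovl6, at 14.9 to 28.5, Me1, at 24.0 to 32.5, and Acacb, at 28.3 to 35.4, were the lowest, with overlapping ranges, and Acacb stood above Elovl6 in each library. Fads2 (109.0 to 209.6), Srebf1 (94.8 to 164.3), Fads1 (79.0 to 208.4) and Fasn (109.4 to 125.6) lay between them with overlapping ranges, and Acly (41.7 to 66.6) below those. The place of Acaca cannot be given, since it was the second at 267.2 to 386.1 with the median length of 889 bases over 7 transcripts, most of them short, and the eighth, with a median of 28.1, with the longest of 9513 bases. With the longest transcripts Scd1 was the highest and Elovl6 the lowest in each library, whereas with the median length Me1 stood just below Elovl6 in control positive.

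Between the gates of control mice the 10 genes differed little, and Scd1 was higher in the positive gate. Its value was 1969 in control positive and 1624 in control negative, a ratio of 1.21 (1.18 to 1.25), and it was the 1 gene of 10 whose interval did not hold 1, where 4.92% of all genes analysed had an interval above 1 and 4.41% below. The other 9 ratios ran from 0.931 for Acly (0.847 to 1.02) to 1.17 for Elovl6 (0.986 to 1.38). The median log2 difference of the 10 was 0.08, beside 0.01 over all genes analysed, with 8 genes above 0 and 2 below. None of the 10 was 2-fold different, where 0.145% of all genes analysed were higher and 0.189% lower. Genes of hepatocytes near the central vein differed alongside this difference. Of that list, 9 of 12 were analysed and all 9 were higher in the positive library, with a median of 0.22, Glul at 131.9 against 97.3 and Cyp2e1 at 1007 against 805.4. All 12 genes of hepatocytes near the portal vein were lower, with a median of -0.15 and Sds at 343.4 against 499.3. The part of zonation in the Scd1 difference was not tested.

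In bezafibrate mice, 7 of the 10 genes were lower in the positive than in the negative gate by their intervals, and none was higher. Of all genes analysed, 18.6% had an interval below 1 and 13.7% above. Intervals narrow with reads and these shares include genes of far fewer reads, so they are not a background of like depth. Fads1 was 0.720-fold (0.680 to 0.763), Scd1 0.734-fold (0.723 to 0.744), Me1 0.741-fold (0.661 to 0.830) and Acly 0.760-fold (0.710 to 0.814). Elovl6 was 0.827-fold (0.704 to 0.972), Fads2 0.854-fold (0.806 to 0.905) and Fasn 0.941-fold (0.909 to 0.975), the last with the other direction (1.04) when scaled by column totals without Rn45s. Srebf1 (0.979, 0.940 to 1.02), Acaca (0.980, 0.914 to 1.05) and Acacb (1.01, 0.943 to 1.08) had intervals that hold 1, and the first 2 crossed 1 under 2 of the 4 other scalings. The median log2 difference was -0.25, beside -0.01 over all genes analysed, and none of the 10 was 2-fold different, where 0.134% of genes were higher and 0.122% lower. Beside these differences stood Rn45s, at 174815 in bezafibrate positive and 99961 in bezafibrate negative, and albumin, at 48208 and 72188. The hepatocyte list had a median of -0.23, with 7 of 8 lower in the positive library. The list of genes near the central vein had -0.14, with 7 of 9 lower, and the list near the portal vein -0.03, with 6 of 12 lower. The part of these values was not tested. Without Rn45s in the column totals the median of the 10 genes was -0.10, beside 0.128 over all genes analysed.

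The high gate of bezafibrate mice stood between the other 2 gates for 5 of the 10 genes, Acly, Scd1, Fads1, Fads2 and Me1. Against the positive gate, 5 genes had an interval above 1, namely Acly at 1.19 (1.11 to 1.28), Fasn at 1.15 (1.11 to 1.19), Acaca at 1.12 (1.05 to 1.20), Fads1 at 1.11 (1.04 to 1.17) and Scd1 at 1.04 (1.03 to 1.06), where 8.22% of all genes analysed had an interval above 1 and 7.74% below. Beside this stood Rn45s, at 123019 in bezafibrate high and 174815 in bezafibrate positive, and albumin, at 54530 and 48208, whose part was not tested. Elovl6 was the 1 gene below, at 0.826 (0.692 to 0.985). Its values over the negative, positive and high gates were 49.7, 41.1 and 34.0, so it was the gene whose value was lower at each step. Against the negative gate, Elovl6 was 0.683-fold (0.580 to 0.803), Scd1 0.766-fold (0.755 to 0.776), Fads1 0.797-fold (0.756 to 0.840), Me1 0.805-fold (0.724 to 0.894), and Acly and Fads2 both 0.906-fold (0.852 to 0.964 and 0.858 to 0.957). Acaca (1.10, 1.03 to 1.17) and Fasn (1.08, 1.05 to 1.12) were above 1. Of all genes analysed, 16.9% had an interval below 1 in this comparison and 12.2% above. The shares of both comparisons include genes of far fewer reads and are not a background of like depth. The 2 comparisons share the high library, and each shares its other library with the comparison of positive with negative above. The bezafibrate ratios over the negative gate thus all rest on the same bezafibrate negative library. Median log2 differences were 0.10 against the positive gate and -0.14 against the negative gate, beside -0.001 and -0.017 over all genes. With Rn45s left out of the column totals the second was -0.026, beside 0.093 over all genes. None of the 10 was 2-fold different in either comparison, where 0.0779% of all genes were higher and 0.0779% lower than in the positive gate, and 0.111% and 0.156% than in the negative gate.

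**Figure D4:**
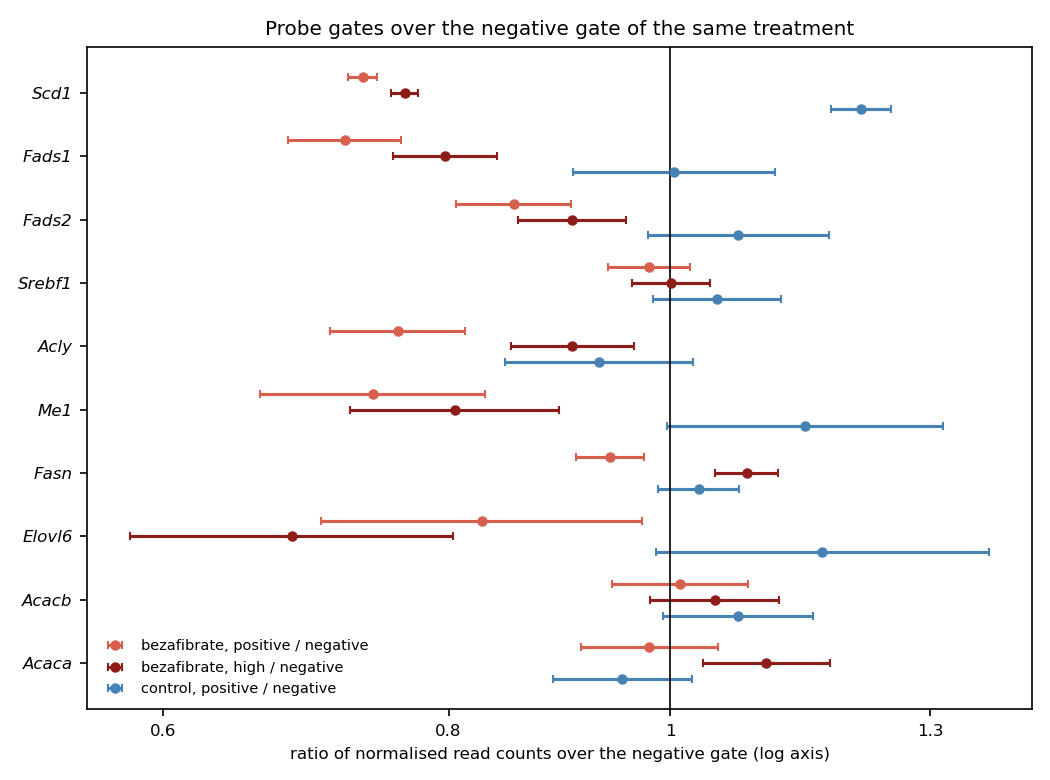
Ratio of normalised read counts over the negative gate of the same treatment (x axis, log scale) for the 10 genes, with exact 95% counting intervals. For Scd1 the bezafibrate ratios are 0.734 (positive) and 0.766 (high) and the control ratio is 1.21, and the Srebf1 and Acacb intervals hold 1 throughout.

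Among other genes of elongation and desaturation, most were higher under bezafibrate. Of 15 listed, 13 were analysed, and 12 were above 0 in both gates, where 4619 and 4525 of all 8981 genes analysed were. Fads6 crossed 1 with the scaling in the negative gate. In the negative gate 7 were at least 2-fold higher, beside 10.3% of all genes, and in the positive gate 4, beside 4.97%, with medians of 1.02 and 0.74. Over the scalings these counts were 5 to 9 and 2 to 6, beside 544 to 1446 and 333 to 820 of all genes. The 4 of the positive gate were Elovl2, Cyb5a, Fads3 and Hacd2, the last 2 named after their values were seen. Elovl2 and Elovl5, which lengthen polyunsaturated fatty acids, were 3.26-fold (3.02 to 3.52) and 2.44-fold (2.31 to 2.59) higher in the negative gate and 2.10-fold (1.93 to 2.28) and 1.76-fold (1.66 to 1.87) in the positive gate. Cyb5a, the cytochrome b5 that passes electrons to desaturases, was 3.28-fold (2.95 to 3.65) and 2.09-fold (1.89 to 2.32) higher. Elovl3, which lengthens saturated and monounsaturated chains, was the 1 gene lower, at 4.40 against 11.5 in the negative and 3.94 against 13.2 in the positive gate.

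The enzymes that supply acetyl-CoA and NADPH were mostly above 0, with medians of 0.51 and 0.30 over 13 genes. In each gate 10 of 13 were above 0, where 4619 and 4525 of all 8981 genes analysed were. Over the scalings the medians ran from 0.251 to 0.736 and from 0.187 to 0.504. Pgd and Pklr in the negative gate and Acss2 and Tkt in the positive gate crossed 1 with the scaling. At least 2-fold higher were 2 in the negative gate (Idh1 and Mdh1), beside 10.3% of all genes, and 3 in the positive gate, Idh1 and Mdh1 among them, beside 4.97%. Idh1, an NADPH-yielding isocitrate dehydrogenase, was 3.45-fold (3.01 to 3.96) and 2.50-fold (2.18 to 2.87) higher, and Mdh1, cytosolic malate dehydrogenase, 3.21-fold (2.89 to 3.56) and 2.36-fold (2.11 to 2.63). G6pdx, which opens the pentose phosphate pathway, was low, at 6.27 against 8.21 and 5.04 against 11.9. As deposited it was the 1 gene of the list at least 2-fold lower in the positive gate, beside 2.91% of all genes. It had 32 against 55 reads there, and over the scalings the count was 0 to 1. Pfkl had 20.9 against 27.5 in the negative and 29.8 against 18.1 in the positive gate.

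Regulators of the pathway other than Srebf1 were mixed. Of 13, 7 were above 0 in the negative gate and 4 in the positive gate, with medians of 0.02 and -0.09 whose direction changed with the scaling. Mlxipl, the carbohydrate-sensing factor ChREBP, was 0.704-fold (0.684 to 0.724) and 0.865-fold (0.841 to 0.889), and Nr1h2, LXRbeta, 0.706-fold (0.597 to 0.835) and 0.683-fold (0.571 to 0.817). Pnpla3, a lipid droplet protein and known SREBP-1c target, was 2.58-fold (1.93 to 3.48) and 2.88-fold (2.17 to 3.87) higher. Of triglyceride synthesis, 9 of 10 listed genes had a row and 8 were analysed, 4 above and 4 below 0 in each gate, with medians of 0.15 and -0.04 whose direction changed with the scaling. Lpin1 and Lpin2, the phosphatidate phosphatases, were 0.264-fold (0.255 to 0.273) and 0.523-fold (0.502 to 0.545) in the negative gate and 0.342-fold (0.331 to 0.354) and 0.619-fold (0.594 to 0.644) in the positive gate. The acyltransferase Gpam was 1.85-fold (1.70 to 2.02) and 1.62-fold (1.49 to 1.77) higher, and Dgat2, which completes triglycerides, 1.51-fold (1.40 to 1.63) and 1.37-fold (1.27 to 1.48).

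The AMP-activated kinase phosphorylates and inhibits both acetyl-CoA carboxylases. Its 7 listed genes had medians of 0.14 and -0.02, whose direction changed with the scaling. Prkag2, a regulatory subunit, was 0.556-fold (0.495 to 0.623) in the negative and 0.623-fold (0.557 to 0.697) in the positive gate, and Stk11, the upstream kinase LKB1, 0.570-fold (0.503 to 0.645) and 0.637-fold (0.559 to 0.725). The subunit Prkab2 was higher, at 19.7 against 5.95 and 28.1 against 7.55, and Prkab1 had 22.1 against 16.8 and 23.3 against 21.3.

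**Figure D5:**
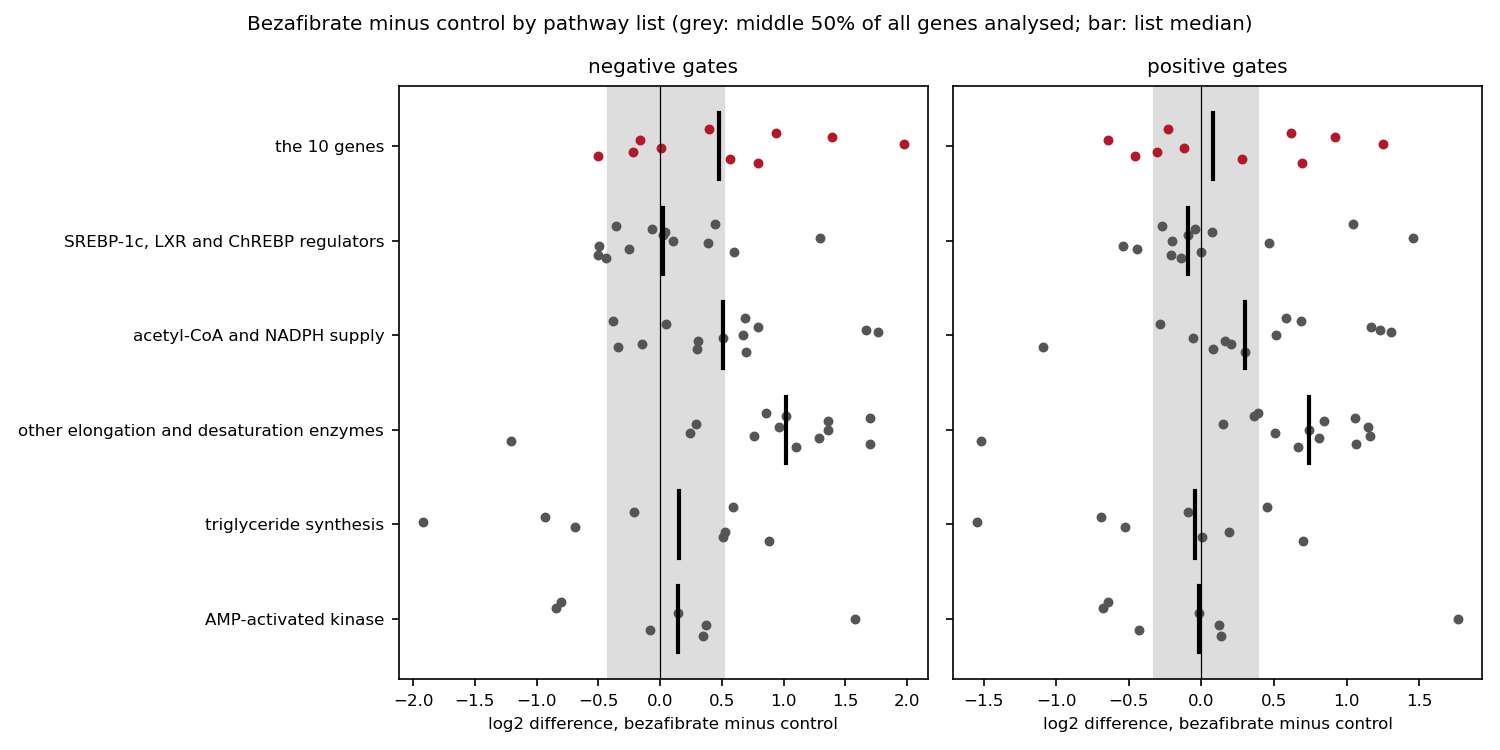
Difference of log2(value + 1), bezafibrate minus control (x axes), for the 10 genes and 5 further pathway lists without them, in the negative gates (left) and positive gates (right). Points are genes, black bars list medians, and the grey band the middle 50% of all 8981 genes analysed; the 10 genes lie on both sides of the band, and other elongation and desaturation enzymes have medians of 1.02 and 0.74.

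The profile over the 5 libraries was compared between genes by the Euclidean distance of centred log2 values, among genes with a mean of at least 100. Nearest to Srebf1 of 1156 genes were Chdh, a choline dehydrogenase, at a distance of 0.084, Gpam at 0.092 and Sord, sorbitol dehydrogenase, at 0.093. Fads2 was the nearest of the other members measured so, at rank 17 (0.147), and Fasn, Scd1 and Acaca stood at ranks 574, 641 and 871. Nearest to Scd1 were Ces1g, a carboxylesterase, at 0.136, Cyp4a12a, an omega-hydroxylase, at 0.136 and Ugt2b5, a glucuronosyltransferase, at 0.142. Each belongs to a family of close paralogues, among which the counting could split reads. This was not checked, so the reads of these 3 genes are uncertain. The nearest of the other members was Fads1 at rank 74 (0.514). These likenesses rest on 5 libraries, of which 3 share a treatment, and are descriptions.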

How the data were processed

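RNA was measured in 5 sorted hepatocyte libraries, 1 per group, with groups taken from the labels. Per the labels' protocols, RNA extraction used a kit made for FFPE material, and directional libraries after rRNA depletion were sequenced from both ends. The submitters' processing notes list mm10 and, without roles, edgeR, RSEM, Bowtie2 and Trimmomatic 0.36; annotation, strand setting and normalisation method are not stated there. The authors deposited normalised gene signal. When a column was divided by its lowest nonzero value, 100% of its values came out whole to within 0.001 reads.

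The members and lists were chosen with earlier results of these data known. Genes with a mean of at least 5 normalised read counts were analysed, which all 10 members passed. Differences are of log2(value + 1), which understates those of low genes; ratios are of deposited values, with Clopper-Pearson 95% intervals. With 1 library per group no p-value is given and 2-fold marks a size. All 10 members were named, and from each further list the 2 genes of highest mean and the 2 most extreme in each direction in the negative gates; some of these are not reported here. Coordinates and lengths came from GENCODE M21 (GRCm38, also called mm10), promoters from RefSeq. The 2-fold calls and the counting intervals were tested on simulated reads with counting error only, and the other steps were not. Alternatives were 4 scalings, 2 pseudocounts, 2 filters, a second transcript length, the median without Scd1, and edgeR 4.0.16 in R 4.3.3. Python 3.11.15, numpy 2.4.6, pandas 2.3.3, scipy 1.17.1 and matplotlib 3.10.9 were used.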

Additional observations from a re-analysis of the deposited data

Results flagged for a closer look

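Scd1 differed between the gates in opposite directions in the 2 treatments. The positive gate was 0.734-fold of the negative gate in bezafibrate mice and 1.21-fold in control mice, with counting intervals that do not hold 1 in either. Me1 differed between the treatments in opposite directions in the 2 gates. Bezafibrate over control was 1.32 in the negative gate and 0.852 in the positive gate, with counting intervals that do not hold 1 as deposited. Under the scalings that bring each Me1 ratio nearest to 1 (1.10 and 0.983), intervals of the same relative width would hold 1. The bezafibrate negative library enters both of these results. With 1 library per group, neither difference was tested.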

How the results depend on the processing

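No paired analysis was possible because each group has a single library, so that groups share fewer than 2 replicate numbers; a fit with the gate as a term is given below. Of 240 member ratios under other scalings, 175 moved by less than their counting interval and 65 by more, and the ratios named in the report as crossing 1 did so. Scaling by column totals moved all genes by 0.23 on the log2 scale in the negative gates (bezafibrate over control) and by 0.21 in the positive gates, and leaving Rn45s out of the totals moved them by -0.26 and -0.12. The median of the 10 genes was 0.48 and 0.08 as deposited, 0.71 and 0.28 by column totals, and 0.22 and -0.036 without Rn45s. That of all genes analysed was 0.025 and 0.004, 0.248 and 0.202, and -0.22 and -0.106 in the same order. The direction of the median of the 10 in the positive gates thus depends on the scaling. Without Scd1, chosen after seeing the data, it was -0.12 in the positive gates. There 5 of the 10 genes lay above 0 and 5 below, so leaving out any 1 of the 5 above gives that value. Without Rn45s the median was -0.10 for bezafibrate positive over negative and -0.026 for high over negative, beside 0.128 and 0.093 over all genes.

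Counts of genes at least 2-fold different, higher then lower, were 923 and 526 in the negative gates. They were 1446 and 267 by column totals, 544 and 1050 without Rn45s, and 574 and 301 at a mean of at least 20; those lower were 317 with a pseudocount of 5 and 809 with no filter. In the positive gates they were 446 and 261, against 820 and 131 by column totals, 333 and 364 without Rn45s, 273 and 132 at a mean of at least 20, and 273 and 138 with a pseudocount of 5; with no filter 421 were lower. For control positive over negative, 13 and 17 became 1 and 2 at a mean of at least 20, 2 and 1 with a pseudocount of 5, 27 and 26 with 0.25, and 83 and 149 with no filter; by column totals 11 were lower. For bezafibrate positive over negative, 12 and 11 became 2 and 6 at a mean of at least 20 and 44 and 48 with no filter; those higher were 23 without Rn45s, 6 with a pseudocount of 5 and 19 with 0.25. For high over positive, 7 and 7 became 2 and 2 at a mean of at least 20 and 85 and 48 with no filter; those higher were 11 by column totals, 3 with a pseudocount of 5 and 13 with 0.25. For high over negative, 10 and 14 became 16 and 8 without Rn45s, 2 and 5 at a mean of at least 20, 1 and 8 with a pseudocount of 5, 17 and 24 with 0.25, and 78 and 55 with no filter. Filters change how many genes enter. A scaling moves the ratios of all genes in a comparison by 1 factor, and a pseudocount moves those of low genes most.

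Genes 2-fold higher and lower in both gates were 358 and 191. An edgeR quasi-likelihood fit of treatment plus gate on recovered reads, added after seeing the data, called 2166 higher and 1944 lower at a Benjamini-Hochberg adjusted threshold of 0.05, in all 4110 of 8981 genes and 7 of the 10 members, but its spread comes from 1 residual degree of freedom between gates and not from replicate mice. Of the 10 genes depth limits Elovl6 most; among the other genes named, Elovl3, Prkab2 and G6pdx had as few as 25, 29 and 30 reads in a library.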
